A study of Gallus gallus with 16 samples.

Results

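The regions described here are the histone-mark peaks on chicken chromosomes 21 to 33, in lens fiber cells kept at high or low oxygen. They were chosen by position: every distinct interval on these chromosomes in any of the 4 deposited peak lists, without regard to any measured value. This gave 11061 peaks of 108520 in all, or 10.2%. They lay on 12 chromosomes, since the lists held no peak on chromosome 29. Those 12 are called the small chromosomes below, although chromosome 16, with peaks over a span of 2.34 Mb, is small as well. Chromosomes 1 to 5, the largest numbered ones, carried 52906 peaks and served as the comparison.

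The study used whole lenses of White Leghorn chick embryos at embryonic day 13, cultured in 1% oxygen (hypoxia) or 21% oxygen (normoxia) for 2 h. The fiber cells, which make up the bulk of the lens, were then dissected away from the epithelium. CUT&RUN was run on 16 libraries. In this assay a nuclease tethered to an antibody releases the DNA that carries a chromatin mark. Per oxygen level these were 2 libraries for H3K27ac, 3 for H3K4me3 and 3 for the nonspecific control IgG, each from 10 to 15 pooled lenses. A second label text gives the time in hypoxia as 0 h or 2 h, so oxygen level and time in culture cannot be told apart.

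Each mark has 1 deposited list per oxygen level, with no value per library. Differences between the lists therefore have no replicate check, and no p-value is given. Intervals below are 95% intervals for counting error in the number of peaks or genes. The depth behind each list is unknown, and its part in any difference between the lists was not tested. Coordinates are those of the deposited table, which the submitters' processing notes tie to build galGal6.

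Bird genomes combine a few large macrochromosomes with many tiny microchromosomes, which are known for dense genes, short introns and GC-rich sequence. H3K27ac, an acetyl mark, sits at active promoters and enhancers. H3K4me3, a methyl mark, sits mainly at the promoters of active genes and of genes held ready for activity.

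The tissue label was checked against marker genes over the whole table. Of 12 lens fiber markers the table names 11, and all 11 had an H3K27ac promoter peak, 9 in both lists and 2 in the hypoxia list only. A promoter peak is a peak that the table places within 3000 bp of a transcription start site (TSS). Markers of other tissues were marked less completely, but not absent. H3K27ac promoter peaks stood at 3 of 6 retina and neuron markers (2 in hypoxia alone) and at 2 of 5 named blood and endothelium markers (1 in hypoxia alone). They also stood at 2 of 4 markers of corneal and periocular mesenchyme and 1 of 3 of pigment epithelium, all 3 in hypoxia alone. All 4 named lens epithelium markers had one, 2 in hypoxia alone. The part of other cells in the lists was not tested.

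Peaks were packed more densely on chromosomes 21 to 33 than on chromosomes 1 to 5 in all 4 lists. The span from the first to the last listed peak summed to 62.6 Mb against 609 Mb. In the normoxia H3K27ac list there were 31.2 peaks per Mb of that span on chromosomes 21 to 33 and 12.1 on chromosomes 1 to 5. In the hypoxia H3K27ac list there were 62.0 and 38.2 per Mb. Chromosomes 6 to 20 lay between these groups in all 4 lists. They held 20.4 per Mb in the normoxia and 58.3 in the hypoxia H3K27ac list. A high hypoxia H3K27ac density was therefore not particular to the small chromosomes. Peaks of at least 500 bp alone gave 17.1 and 36.3 per Mb on the small chromosomes for normoxia and hypoxia H3K27ac. The H3K4me3 lists held 38.8 per Mb against 17.5 in normoxia, and 44.7 against 19.2 in hypoxia. Named genes were denser too, with 2065 on the small chromosomes and 6275 on chromosomes 1 to 5, whose span was far longer. The table names a gene only where a listed peak was annotated to it, so genes without a peak are missing from both counts. Counted per named gene the order was the opposite: the hypoxia H3K27ac list held 1.88 peaks per gene on chromosomes 21 to 33 and 3.70 on chromosomes 1 to 5, and the normoxia list 0.944 and 1.17.

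Chromosome 31 departed from the other small chromosomes. Its peaks spread over a span of 6.09 Mb, but the density was 7.72 peaks per Mb for normoxia H3K27ac and 11.5 for hypoxia H3K27ac, below the lowest of chromosomes 1 to 5 (10.8 and 35.4). Of its 199 peaks, 171 lay in the 4 fullest of 13 windows of 500 kb, and 9 windows held any peak. The other 11 chromosomes lay above every one of chromosomes 1 to 5 in each list except hypoxia H3K27ac. There 10 of the 12 did, and chromosome 33, at 42.3 per Mb, lay below chromosome 5, at 48.9. Chromosome 28 had the densest hypoxia H3K27ac peaks, 99.2 per Mb, and chromosome 32, the shortest at 0.723 Mb, the densest normoxia H3K27ac peaks, 51.2 per Mb.

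**Figure D1:**
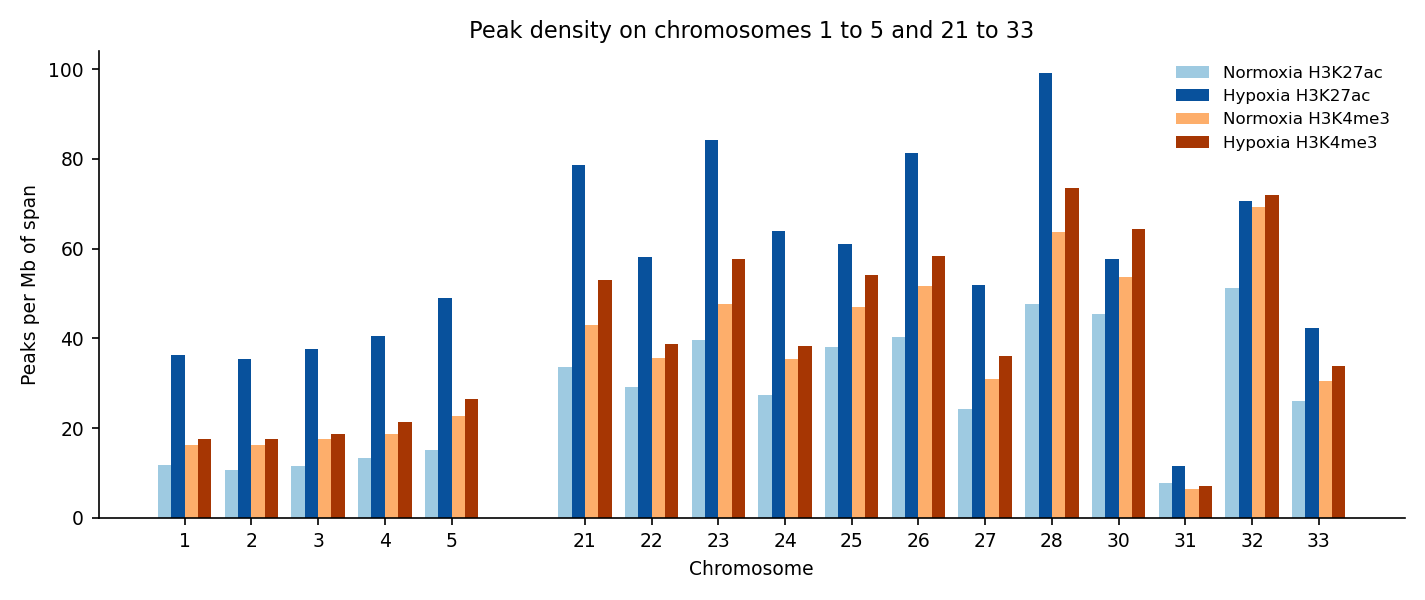
Peaks per Mb of span (first to last listed peak) for chromosomes 1 to 5 and 21 to 33, 1 bar per list. Bars are counts over span with no replicate error; chromosome 31 is the low one among the small chromosomes, at 7.72 normoxia H3K27ac peaks per Mb.

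Peaks on the small chromosomes lay nearer to gene starts. Of the normoxia H3K27ac peaks, 50.6% (48.4 to 52.8%) were promoter peaks, against 33.7% (32.6 to 34.8%) on chromosomes 1 to 5. In hypoxia the H3K27ac shares were 46.2% (44.6 to 47.7%) and 23.5% (22.9 to 24.0%). A window of 1000 bp gave 33.5% against 25.1% in normoxia and 28.1% against 15.3% in hypoxia. For H3K4me3 the shares were 64.5% against 43.4% in normoxia and 62.0% against 41.4% in hypoxia. Chromosomes 6 to 20 lay between, at 37.4% and 28.5% for normoxia and hypoxia H3K27ac and 48.0% and 45.3% for H3K4me3. The median distance to the TSS was 2895 bp for normoxia and 3618 bp for hypoxia H3K27ac, against 9289 and 13535 bp. Introns held 18.5% of hypoxia H3K27ac peaks on the small chromosomes and 32.4% on chromosomes 1 to 5, and distal intergenic sequence 13.9% and 28.5%.

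Within the small chromosomes the promoter share varied widely. For hypoxia H3K27ac it ran from 29.6% on chromosome 24 to 74.5% on chromosome 32, with chromosome 25 at 61.7%. Chromosome 24 was the lowest of the 12 in every list, from 28.9% for normoxia H3K27ac to 50.9% for normoxia H3K4me3. For both H3K4me3 lists and for hypoxia H3K27ac all 12 chromosomes lay above the highest of chromosomes 1 to 5. For normoxia H3K27ac 10 of 12 did, chromosomes 21 (34.2%) and 24 being the exceptions, since chromosome 5 reached 36.9%.

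**Figure D2:**
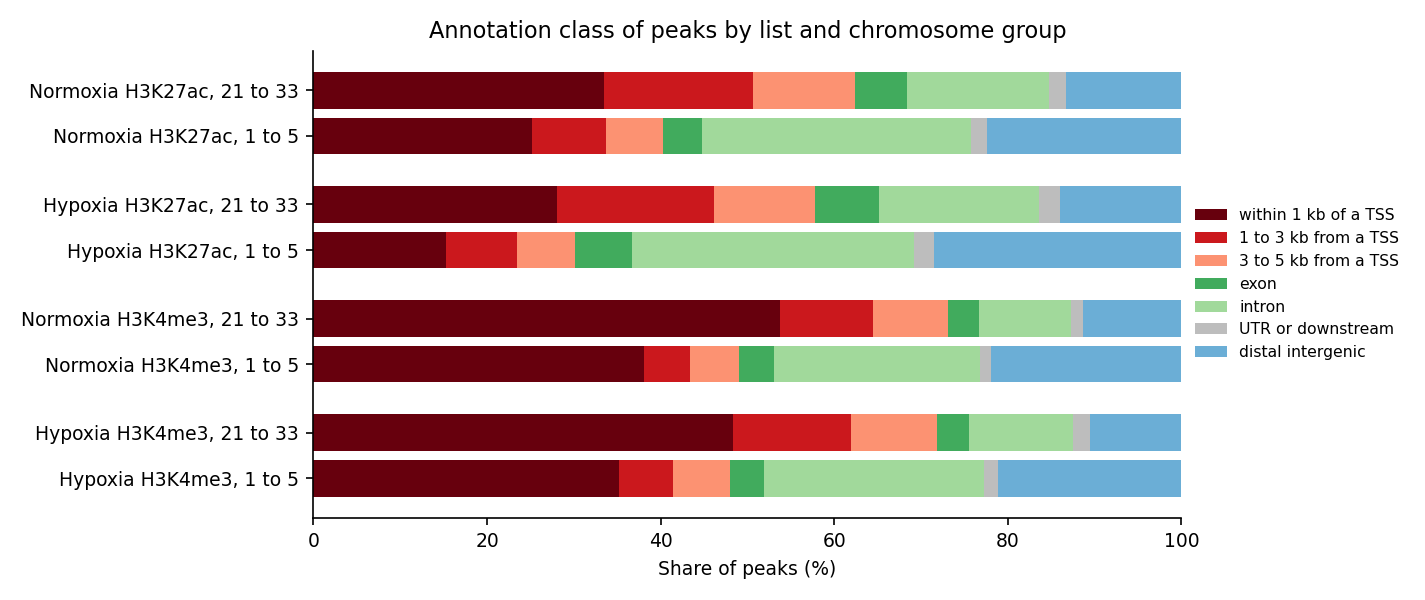
Share of peaks in each annotation class (percent, 7 classes by distance to the TSS and gene part), for the 4 lists on chromosomes 21 to 33 and 1 to 5. The red segments, within 3 kb of a TSS, take 46.2% of hypoxia H3K27ac peaks on the small chromosomes and 23.5% on chromosomes 1 to 5.

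Peaks pooled over the small chromosomes were also somewhat wider. Median widths on chromosomes 21 to 33 were 563 bp for normoxia and 606.5 bp for hypoxia H3K27ac, against 528 and 557 bp on chromosomes 1 to 5. For H3K4me3 they were 1191 and 1118 bp, against 968 and 882 bp. Chromosomes 6 to 20 lay between, at 544 and 571 bp for H3K27ac and 1061 and 919 bp for H3K4me3. By chromosome, 7 of 12 in normoxia and 9 in hypoxia lay above the highest of chromosomes 1 to 5 for H3K27ac. For H3K4me3 10 and 12 did. Below the lowest of chromosomes 1 to 5 lay 1 and 2 for H3K27ac, and 2 and 0 for H3K4me3. At the wide end the marks differed in their order. H3K27ac peaks over 5000 bp were 0.359% of the normoxia and 0.541% of the hypoxia list, against 0.0681% and 0.503% on chromosomes 1 to 5. H3K4me3 peaks over 5000 bp numbered 107 in normoxia and 150 in hypoxia, which is 4.40% and 5.36% of the small-chromosome lists, against 6.08% and 6.47% on chromosomes 1 to 5. Of H3K4me3 peaks on the small chromosomes, 7.28% in normoxia and 6.54% in hypoxia were annotated to more than 1 gene, against 3.79% and 3.64%.

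The excess of hypoxia over normoxia H3K27ac peaks was smaller on the small chromosomes. The lists held 1950 normoxia and 3882 hypoxia H3K27ac peaks there, a ratio of 1.99 (1.89 to 2.10). On chromosomes 1 to 5 the counts were 7337 and 23245, a ratio of 3.17 (3.09 to 3.25). All 12 small chromosomes lay below the lowest of chromosomes 1 to 5. The small chromosomes thus took 12.6% (12.1 to 13.1%) of the normoxia list and 8.49% (8.24 to 8.75%) of the hypoxia list. By covered length the ratio was 2.27 on chromosomes 21 to 33 pooled, and each of the 12 again lay below the lowest of chromosomes 1 to 5, chromosome 4 at 3.42.

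The ratios within the small chromosomes spread over a wide range, with the lowest on chromosomes 30 and 32. Chromosome 30 had 81 normoxia and 103 hypoxia H3K27ac peaks, a ratio of 1.27 (0.951 to 1.70). Chromosome 32 followed with 37 and 51 peaks, a ratio of 1.38 (0.906 to 2.10), and chromosome 31 with 47 and 70, a ratio of 1.49 (1.03 to 2.15). The intervals of chromosomes 30 and 32 included equal counts. Chromosomes 25 and 33 stood at 1.61 (1.31 to 1.97) and 1.63 (1.35 to 1.96). Chromosomes 22, 26, 28, 23 and 27 lay between 1.99 and 2.15, and chromosomes 21 and 24 were the highest at 2.33 (1.99 to 2.72) and 2.34 (1.96 to 2.80). Neighbours in this order did not differ beyond their intervals. Chromosomes 1 to 5 lay between 3.05 and 3.29. Chromosomes 6 to 20 filled the range between, from 2.34 on chromosome 16, whose span was 2.34 Mb, to 3.18 on chromosome 8.

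Across the 32 numbered chromosomes with peaks the rank correlation of the H3K27ac ratio with span was 0.94, and within the 12 small ones 0.69. With density of named genes it was -0.79 over the 32. That density counts only genes with a listed peak. All points come from the same 2 lists, and length and gene density vary together, so these values describe the lists and have no test. For H3K4me3 the rank correlation with span was -0.13.

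**Figure D3:**
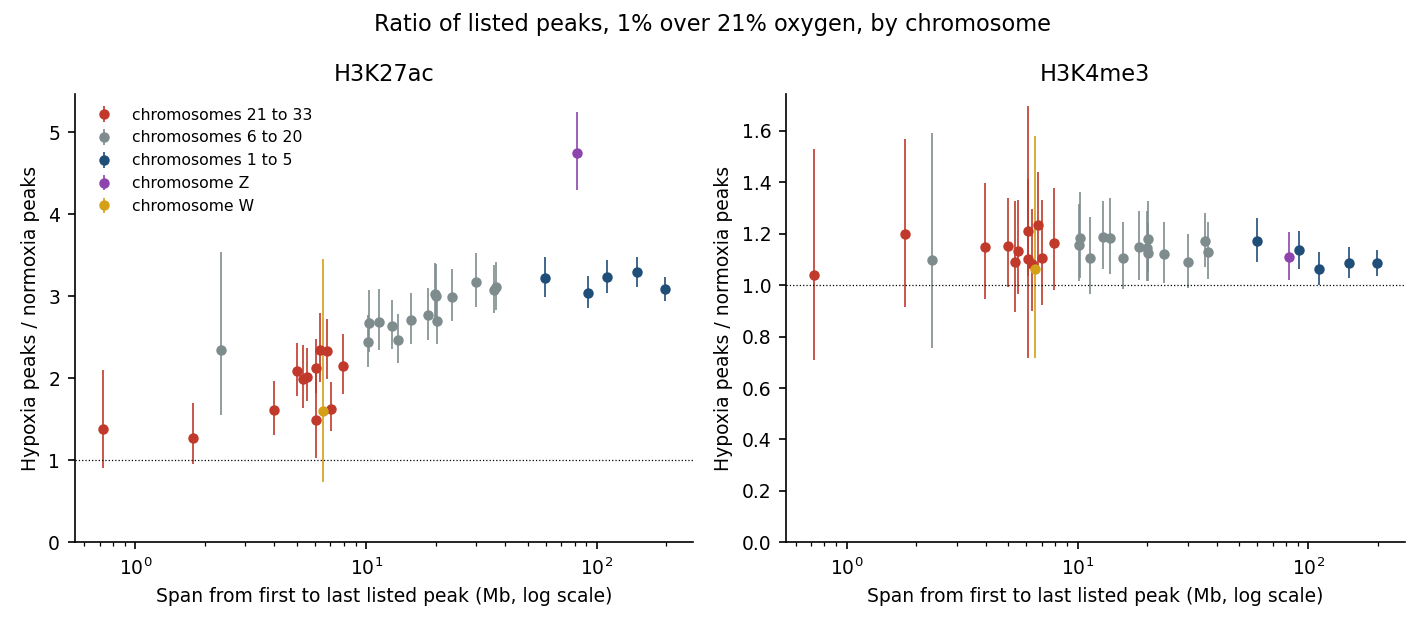
Hypoxia over normoxia peak count for each chromosome against its span in Mb (log axis), H3K27ac on the left and H3K4me3 on the right; points are ratios and bars 95% counting intervals. H3K27ac ratios of chromosomes 21 to 33 lie between 1.27 and 2.34, all below those of chromosomes 1 to 5, while the H3K4me3 ratios overlap.

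H3K4me3 showed no such gap, and its ratio was slightly higher on the small chromosomes. The lists held 2431 and 2798 peaks on the small chromosomes, a ratio of 1.15 (1.09 to 1.22), and 10631 and 11693 on chromosomes 1 to 5, a ratio of 1.10 (1.07 to 1.13). The 12 small chromosomes ran from 1.04 on chromosome 32 to 1.23 on chromosome 21, and chromosomes 1 to 5 from 1.06 to 1.17, so that the groups overlapped. The small chromosomes held 10.9% of the normoxia and 11.2% of the hypoxia H3K4me3 list. By covered length the H3K4me3 ratio was 1.14 against 1.08, and 7 of the 12 lay above the highest of chromosomes 1 to 5. In 0 of 7 annotation classes and 0 of 6 width classes was the H3K4me3 ratio lower on the small chromosomes.

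The H3K27ac ratio was lower on the small chromosomes in each of the 7 annotation classes. Within 1 kb of a TSS it was 1.67 (1.52 to 1.84) on the small chromosomes and 1.92 (1.82 to 2.03) on chromosomes 1 to 5, where the intervals overlapped slightly. In introns it was 2.25 (1.98 to 2.57) against 3.31 (3.16 to 3.47), in exons 2.44 (1.97 to 3.03) against 4.66 (4.14 to 5.25), and in distal intergenic sequence 2.08 (1.79 to 2.41) against 4.03 (3.82 to 4.25). In 5 of the 7 classes the intervals did not meet. In 6 of 6 width classes the ratio was also lower, all with intervals apart. Among H3K27ac peaks with no H3K4me3 peak of the same oxygen level the ratio was 2.34 (2.16 to 2.54) against 4.15 (4.00 to 4.30), and among those with one 1.72 (1.60 to 1.85) against 2.13 (2.04 to 2.21).

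**Figure D4:**
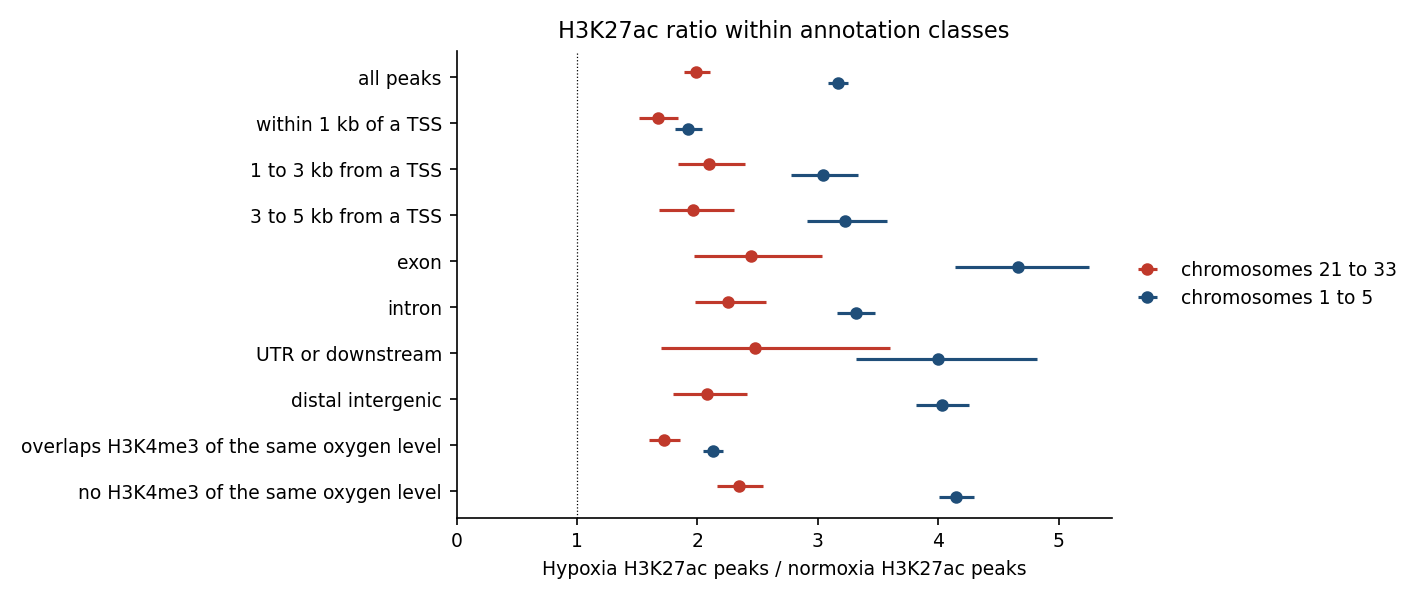
Hypoxia over normoxia count of H3K27ac peaks within annotation classes and by overlap with H3K4me3; points are ratios, bars 95% counting intervals, and the dotted line marks equal counts. The gap between chromosomes 21 to 33 and 1 to 5 is widest in exons (2.44 against 4.66) and distal intergenic sequence (2.08 against 4.03), and narrowest within 1 kb of a TSS.

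List length bears on the direction of the ratio. When the hypoxia list was reduced genome-wide to its 15511 widest peaks, the number in the normoxia list, the ratio was 0.757 on the small chromosomes and 1.05 on chromosomes 1 to 5. The order of the chromosome groups was the same as with the full list, and the direction on the small chromosomes was the opposite. That direction is not a separate result, since lists of equal length make the genome-wide counts equal by construction. The cut also kept only hypoxia peaks of 782 bp or more, beside normoxia peaks down to 162 bp.

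A larger share of hypoxia H3K27ac peaks overlapped a normoxia peak on the small chromosomes, while the share of normoxia peaks was alike under the 1 bp rule. A peak counted as shared if a peak of the other oxygen level covered 1 bp of it or more. In the hypoxia list 29.2% (27.8 to 30.7%) were shared, against 18.0% (17.5 to 18.5%) on chromosomes 1 to 5, and all 12 small chromosomes lay above the highest of chromosomes 1 to 5. Chromosome 30 was highest at 48.5% and chromosome 21 lowest at 24.3%. Chromosomes 6 to 20 pooled stood at 19.8%. In the normoxia list the share was 60.9% (58.7 to 63.0%), against 60.5% (59.4 to 61.6%), where the intervals overlapped. Shared peaks numbered 1187 in the normoxia and 1134 in the hypoxia list, against 4441 and 4179 on chromosomes 1 to 5. Under this rule the larger hypoxia share therefore restates the lower ratio of hypoxia to normoxia peaks and is not a separate result. The small chromosomes had 763 normoxia and 2748 hypoxia H3K27ac peaks in that list only, which is 39.1% and 70.8% of their peaks. Genome-wide the shares were 39.3% and 80.7%. The shared shares depended on the rule. With lists of equal length 43.4% of normoxia and 51.3% of hypoxia peaks were shared, against 45.4% and 38.4% on chromosomes 1 to 5. With an overlap of 50% of both peaks 18.2% and 9.14% were, against 15.1% and 4.78%, so that the normoxia share was then larger on the small chromosomes too.

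H3K4me3 peaks were shared more often in both directions. In the normoxia list 78.4% (76.7 to 80.0%) were shared, against 62.8% (61.8 to 63.7%) on chromosomes 1 to 5. Seen from the hypoxia list, 66.2% (64.5 to 68.0%) had a normoxia partner, against 56.8% (55.9 to 57.7%). Chromosomes 6 to 20 lay between, at 67.3% and 58.4%. Genome-wide 33.5% of normoxia and 41.2% of hypoxia H3K4me3 peaks lay in that list only, and on the small chromosomes 21.6% and 33.8% did. Chromosome 32 was highest, with 94.0% and 84.6% shared.

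Width went with sharing in each list, and under the 1 bp rule a wider peak meets another peak more easily. Of hypoxia H3K27ac peaks on the small chromosomes up to 300 bp wide, 10.1% (8.35 to 12.2%) overlapped a normoxia peak, and of those over 1000 and up to 2000 bp 51.4% (47.7 to 55.0%) did. All 21 hypoxia and all 7 normoxia H3K27ac peaks over 5000 bp had an overlapping partner. Within the narrow classes the small chromosomes still had the larger share: chromosomes 1 to 5 stood at 3.75% up to 300 bp and 36.3% over 1000 and up to 2000 bp. The ratio of hypoxia to normoxia peaks was also lower on the small chromosomes in each width class, as given above. For normoxia H3K27ac the classes were close, 38.8% against 39.2% up to 300 bp and 64.9% against 64.7% over 500 and up to 1000 bp. Shared hypoxia H3K27ac peaks of the small chromosomes had a median width of 1168.5 bp, and those in that list only 481 bp. A start site within 1 kb was more common among the shared, 40.8% against 22.9%, as was an overlapping H3K4me3 peak, 75.4% against 38.2%. The part of width in these shares was not tested.

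The marks coincided more often on the small chromosomes. Of normoxia H3K27ac peaks 56.8% (54.6 to 59.0%) overlapped an H3K4me3 peak of the same oxygen level, against 48.5% (47.3 to 49.6%), and of hypoxia H3K27ac peaks 49.1% (47.5 to 50.7%), against 32.5% (31.9 to 33.2%). Chromosomes 6 to 20 lay between, at 50.5% and 37.0%. Of the small chromosomes, 32 was highest in both lists, at 78.4% and 76.5%. With an overlap of 50% of both peaks the pooled shares on the small chromosomes were 11.2% and 11.6%. H3K4me3 peaks covered 6.71% of the span in normoxia and 7.64% in hypoxia, against 3.02% and 3.27% on chromosomes 1 to 5. The part of this coverage in the overlap of the marks, and in the sharing of H3K4me3 peaks, was not tested.

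At gene level, 2065 genes were named on the small chromosomes, 176 of them without a symbol, and 1847 had a promoter peak of either mark. A gene counted as marked in both lists where each list gave it a promoter peak, or where the other list had any peak under the promoter peak of the first. H3K27ac promoter peaks were found at 1421 genes. Of these, 702 were in both lists (49.4%), against 46.9% genome-wide. A further 588 were hypoxia-only (41.4%, 38.8 to 44.0%), against 47% genome-wide. The remaining 131 were normoxia-only (9.22%, 7.82 to 10.8%), against 6.04%. With the hypoxia list reduced to the length of the normoxia list the order was the opposite, 217 hypoxia-only and 330 normoxia-only genes, and 501 were in both. The same reduction gave 824 hypoxia-only and 691 normoxia-only genes on chromosomes 1 to 5. It removes hypoxia peaks under 782 bp and no normoxia peak, which by construction lowers hypoxia-only and raises normoxia-only counts. Peaks of at least 500 bp alone left 437 genes in both. With the full lists the shares on chromosomes 1 to 5 were 47.6% in both, 47.0% (45.4 to 48.5%) hypoxia-only and 5.40% (4.75 to 6.14%) normoxia-only of 4036 genes.

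H3K4me3 promoter peaks were found at 1670 genes of the small chromosomes. Both lists held 1503 (90.0%), against 91.4% genome-wide. The hypoxia list alone held 110 (6.59%, 5.49 to 7.88%), against 5.15%, and the normoxia list alone 57 (3.41%), against 3.49%, or 87 genes with peaks at any distance. Of the 588 genes with H3K27ac in the hypoxia list only, 423 had H3K4me3 in both lists, 116 in neither, 36 in hypoxia alone and 13 in normoxia alone. Genome-wide there were 4370 such genes, and the counts in the same order were 3387, 700, 186 and 97. Taking all peaks annotated to a gene, at any distance, 639 of the 2065 genes had H3K27ac in hypoxia alone (30.9%) and 121 in normoxia alone (5.86%), against 39.1% and 2.15% on chromosomes 1 to 5.

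Where a gene had H3K27ac promoter peaks in both lists, the widest one was usually wider in hypoxia, but by less on the small chromosomes. Over 664 genes the median width was 793.5 bp at high and 1232 bp at low oxygen, the median log2 ratio of widths was 0.58, and 67.3% of genes were wider in hypoxia. Over 1850 genes of chromosomes 1 to 5 the widths were 670 and 1339 bp, the median log2 ratio 1.00, and 77.4% were wider. For H3K4me3 the median log2 ratios were 0.12 over 1466 genes and 0.11 over 4195. The widest peaks of the lists were not always at the same place. For H3K27ac they overlapped at 454 of the 664 genes (68.4%) and at 66.6% of those of chromosomes 1 to 5, and over these genes the median log2 ratios were 0.65 and 1.03. For H3K4me3 they overlapped at 96.0% of the 1466 genes.

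The genes below are taken from lists of pathways and cell types, naming in each at most 6 genes, those with the widest H3K27ac promoter peak. The genome-wide shares above are of genes with a promoter peak of the mark. These were 9295 of 14100 named genes for H3K27ac and 10846 for H3K4me3. On the small chromosomes they were 1421 and 1670 of 2065. The list counts below are of all named members, with or without such a peak. Counted in that way, H3K27ac promoters were hypoxia-only at 588 of 2065 genes here and at 4370 of 14100 genome-wide. They were in both lists at 702 of the 2065 and 4364 of the 14100. H3K4me3 promoters were in both lists at 1503 of the 2065 and 9909 of the 14100. The lists are small and were not tested, so they cannot show whether a state is particular to a pathway.

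Lens fiber structure genes had 5 members here, and all 5 had H3K4me3 promoters in both lists, and 4 of them H3K27ac. CRYAB encodes alpha B-crystallin, a small heat shock protein of the lens. Its widest H3K27ac promoter peak measured 5088 bp at high and 5498 bp at low oxygen. Its H3K4me3 peak measured 4521 and 6087 bp. Pairs of widths are given below with normoxia first, and a pair may be 2 separate peaks. Of the list members named with an H3K27ac pair, the peaks did not overlap at CRYAB, EPHA2, STK11, TFEB, NDUFA11, ATP5G2, TXNIP and MAPT. SLC2A1, the glucose transporter GLUT1, had H3K27ac peaks of 3228 and 2852 bp, and H3K4me3 peaks of 7876 and 9344 bp. EPHA2, an ephrin receptor of lens fibers, had narrow H3K27ac peaks of 544 and 596 bp. HSPB2, a small heat shock gene beside CRYAB, had no H3K27ac promoter peak of its own. RARA, a retinoic acid receptor and the only listed lens transcription factor gene on these chromosomes, had H3K27ac peaks of 6359 and 1902 bp. Its H3K4me3 peaks were 8490 and 7418 bp.

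MIP, which encodes the fiber cell water channel aquaporin 0, lies on chromosome 33 in a run of close genes. In hypoxia a single H3K4me3 peak of 18518 bp (6917043 to 6935560) was annotated to RBMS2, MIP, TIMELESS, APOF and STAT2. It was the only peak on the small chromosomes annotated to 5 genes, and 4 separate normoxia peaks that summed to 13979 bp overlapped it. The normoxia peak at MIP ran from 6922711 to 6932155, 9445 bp. H3K27ac at the MIP start was narrower in hypoxia, 1675 bp (6924019 to 6925693), than in normoxia, 3163 bp (6922149 to 6925311). TIMELESS, which protects replication forks, and APOF, an apolipoprotein gene, had H3K27ac promoter peaks of 3001 and 1137 bp in hypoxia and none in normoxia. RBMS2, an RNA-binding protein gene, had 1519 and 3366 bp, and STAT2, a mediator of interferon signals, 372 and 3395 bp. Over the 5 genes H3K27ac covered 5.99 kb in 5 normoxia peaks and 13.5 kb in 7 hypoxia peaks.

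The crystallin region of chromosome 24 had wide H3K27ac in both lists. A normoxia peak of 5088 bp (6234965 to 6240052) spanned the starts of C11orf52 and CRYAB, and a second of 2092 bp (6240865 to 6242956) lay just beyond. In hypoxia the same stretch held peaks of 3551 bp, 1399 bp and 5498 bp, the last from 6241324 to 6246821. The neighbour DIXDC1 had the widest hypoxia peak of the region, 6478 bp (6218704 to 6225181), where normoxia had 2 peaks of 1768 and 2064 bp. Over CRYAB, HSPB2, C11orf52 and DIXDC1 together, H3K27ac covered 18.5 kb in 12 normoxia peaks and 25.4 kb in 11 hypoxia peaks.

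Genes of the hypoxia-inducible factor (HIF) pathway had 3 members here, and all 3 had H3K27ac promoter peaks in the hypoxia list only, with H3K4me3 in both. Of all genes with an H3K27ac promoter peak, 41.4% were hypoxia-only on these chromosomes and 47.0% genome-wide. HIF, built from an oxygen-sensitive alpha subunit and a stable beta subunit, drives the transcriptional answer to low oxygen. ARNT, the beta subunit, had no H3K27ac peak in normoxia and a 2071 bp promoter peak in hypoxia (chromosome 25, 191160 to 193230), and its H3K4me3 peak measured 2575 and 4295 bp. HIF3A, an alpha subunit known mainly as a modulator of the others, had 353 bp of H3K27ac in hypoxia. CITED4, a partner of the coactivators CBP and p300, had 310 bp. The last pair of peaks were narrower than the median hypoxia H3K27ac peak of these chromosomes.

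Of 56 HIF target symbols, 7 were on these chromosomes, and their H3K27ac states were mixed, 4 in both lists, 2 in the normoxia list only and 1 without a promoter peak. BNIP3L, a mitophagy receptor that lens cells use to clear mitochondria, had a promoter H3K27ac peak of 742 bp in normoxia, against 3906 bp at low oxygen (chromosome 22, 677598 to 681503). Over the whole gene it had 4 H3K27ac peaks covering 1.60 kb in normoxia and 7 covering 10.2 kb in hypoxia. Its hypoxia list included a second wide peak of 3641 bp downstream of the gene (664861 to 668501), where normoxia had 191 bp. HK2, which phosphorylates glucose in the first step of glycolysis, had 238 and 3123 bp, the latter from 4128337 to 4131459 on chromosome 22. Its widest H3K4me3 promoter peaks lay at another annotated start, in hypoxia from 4063324 to 4067006. KDM4B, an oxygen-dependent histone demethylase, had 1245 and 1693 bp, with 2 annotated H3K27ac peaks in normoxia and 10 in hypoxia. MCL1, an anti-apoptotic BCL2 relative, and PLOD1, a collagen lysyl hydroxylase, had 1259 and 475 bp in normoxia and no hypoxia promoter peak. ENO1, the glycolytic enolase, had H3K4me3 peaks of 5963 and 5964 bp and no H3K27ac promoter peak in either list.

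Among 7 genes of glycolysis and glucose transport, 4 had H3K27ac in both lists and 2 in the hypoxia list only. PGD, an enzyme of the pentose phosphate pathway, had 1449 and 1236 bp, and PGLS, of the same pathway, 787 and 293 bp. SLC16A1, a lactate transporter, and PFKM, a phosphofructokinase, had 317 and 176 bp in hypoxia only. Of 19 respiratory chain genes, 9 had H3K27ac in both lists, 9 in hypoxia alone and 1, COX5B, in neither, while all 19 had H3K4me3 in both. The ATP synthase gene ATP5L had 2684 bp in the hypoxia list only. UQCR11, of complex III, had 1014 and 2784 bp, and ATP5G2, of ATP synthase, 187 and 1735 bp. NDUFA11, of complex I, had the narrower peak in hypoxia, 807 against 1965 bp.

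Autophagy and mitophagy genes had 9 members, of which 7 had H3K27ac in both lists and BECN1 and VPS25 in neither. At 6 of the 7, BNIP3L among them, the hypoxia peak was the wider one, though not all 6 pairs overlapped. Among all genes with such a pair, 67.3% were wider in hypoxia on the small chromosomes and 75.4% genome-wide. NBR1, a selective autophagy receptor, had 1262 and 3913 bp. STK11, the kinase LKB1, had 1017 and 2952 bp, and MTOR, the growth-controlling kinase, 525 and 2690 bp. ATG101, of the initiation complex, had 297 and 1734 bp. TFEB, a regulator of lysosomal genes, was narrower in hypoxia, 860 against 511 bp. MTOR had no H3K4me3 promoter peak annotated to it in normoxia, but its hypoxia peak of 4991 bp overlapped a normoxia peak annotated elsewhere.

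**Figure D5:**
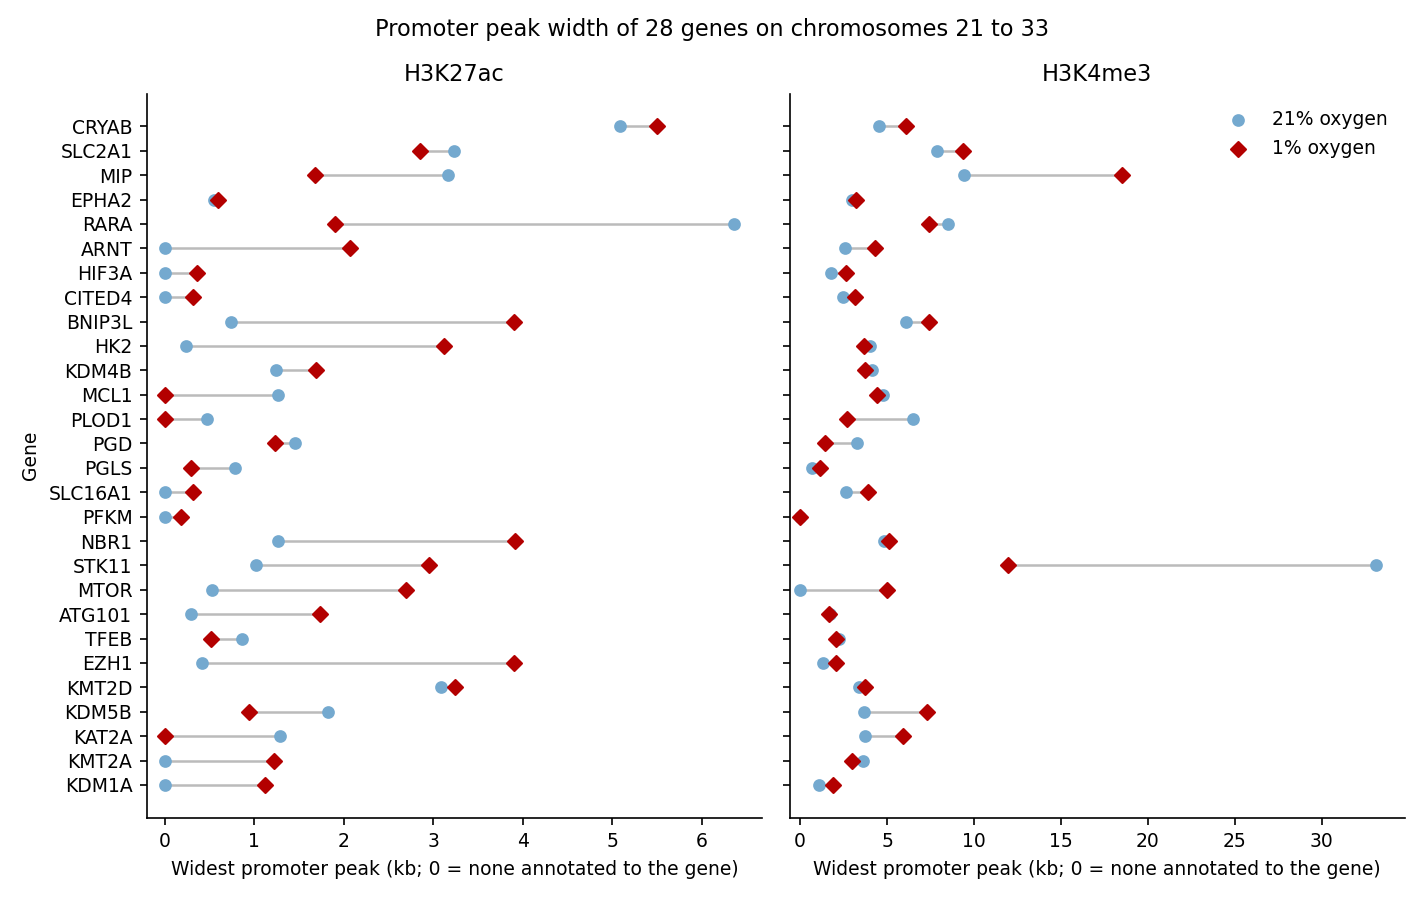
Width in kb of the widest promoter peak in the normoxia (circle) and hypoxia (diamond) list for 28 genes of 7 pathway lists, H3K27ac on the left and H3K4me3 on the right; 0 means that no promoter peak is annotated to the gene, and a pair may be separate peaks. BNIP3L, HK2, NBR1 and EZH1 have the longest bars towards hypoxia in H3K27ac, and RARA and MIP towards normoxia.

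The list of histone acetylation and H3K4 methylation genes, which also takes in related enzymes and subunits, had 15 members here, all with H3K4me3 in both lists. For H3K27ac, 6 were marked in both lists, 7 in hypoxia alone and 1 in normoxia alone. EZH1, a methyltransferase that acts on H3K27, had 411 and 3898 bp. KMT2D, which methylates H3K4 at enhancers, had 3088 and 3243 bp. KDM5B, which removes H3K4 methylation, had 1822 and 936 bp of H3K27ac, and its H3K4me3 peak 3671 and 7303 bp. KMT2A, another H3K4 methyltransferase, and KDM1A, the demethylase LSD1, had 1216 and 1120 bp in the hypoxia list only. KAT2A, the acetyltransferase GCN5, had 1286 bp in the normoxia list only.

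Of 11 chromatin remodeler genes, 3 had H3K27ac in both lists, 5 in hypoxia alone and 1, SMARCA4 with 185 bp, in normoxia alone. RBBP4, a histone-binding subunit shared by many complexes, had 1134 and 3379 bp. SMARCD1, a subunit of the BAF remodeler, had 1294 and 2499 bp, and SMARCE1, of the same complex, 992 and 537 bp. MTA2, of the NuRD deacetylase complex, and ARID1A, of BAF, had promoter peaks of 1003 and 598 bp in hypoxia only. Outside the promoter window ARID1A had 5 normoxia H3K27ac peaks covering 5.60 kb. RERE, a nuclear receptor corepressor, had its widest H3K27ac peak in hypoxia outside the promoter, 6750 bp wide at a listed distance to the TSS of -8710 bp (chromosome 21, 3165891 to 3172640). A single normoxia peak of 746 bp overlapped it. Its annotated H3K27ac peaks numbered 11 in normoxia and 25 in hypoxia.

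Stress genes were mixed. Of 12 immediate early and stress genes, 3 had H3K27ac in both lists, 2 in hypoxia alone, 2 in normoxia alone and 5 in neither. TXNIP, a thioredoxin inhibitor, had 1094 and 1974 bp, and ID3, an inhibitor of helix-loop-helix factors, 1525 and 744 bp. PIM1, a survival kinase, had 938 bp in hypoxia only. BTG2, an antiproliferative gene, and JUND, an AP-1 subunit, had 685 and 512 bp in normoxia only. The only H3K4me3 promoter in 1 list was KLF2, with 343 bp in hypoxia. Of 10 heat shock and unfolded protein genes, 2 had H3K27ac in both lists, 3 in hypoxia alone and 2 in normoxia alone. HSPA8, the constitutive HSP70, had 1204 bp in normoxia only, and CALR, a calcium-binding chaperone, 1162 bp in hypoxia only. Of 14 cell cycle genes, 7 had no H3K27ac promoter peak and 13 had H3K4me3 in both lists. CDC42, a small GTPase of cell shape, had 462 and 2223 bp, and TOP2A, the replicative topoisomerase, 877 bp in hypoxia only.

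Genes of keratins and S100 proteins, typical of skin and other epithelia, had 11 members. H3K27ac was found at 3 in both lists and at 6 in hypoxia alone, while H3K4me3 was found at 4 promoters. S100A10, a partner of annexin A2, had 1758 and 4439 bp of H3K27ac, and S100A1, a calcium sensor, 1049 and 2442 bp. KRT10 had 2153 and 1083 bp. KRT18, S100A11 and KRT7 had 1454, 1259 and 618 bp in hypoxia only. None of the 10 HOXB symbols sought was named in the table. The lists of other tissues named 10 genes here, and 7 had an H3K27ac promoter peak, 6 of them in hypoxia alone. These were NCAM1 (942 bp) and NEFL (287 bp) of neurons, ETS1 (651 bp), RHCE (355 bp) and EPB41 (194 bp) of blood and vessels, and COL1A1 (182 bp) of connective tissue. MAPT, of neurons, was in both lists with 1057 and 268 bp. THY1 and NEUROD2 of neurons and FLI1 of blood and vessels had none. Among all genes with an H3K27ac promoter peak, 41.4% were in hypoxia alone on these chromosomes and 47.0% genome-wide. H3K4me3 promoter peaks were in both lists at 3 of the 5 neuron genes and 3 of the 4 of blood and vessels. COL1A1 had none. The part of other tissues in the excess of hypoxia peaks was not tested.

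The widest H3K27ac promoter peaks in 1 list only were larger in hypoxia, though drawn from 588 genes there and from 131 in normoxia. In the hypoxia list these were TMEM183A with 4351 bp, and CNNM4, a magnesium transporter, and LMAN2L, a cargo lectin, which shared 1 peak of 4264 bp between their starts (chromosome 22, 3734003 to 3738266). CBL, a ubiquitin ligase for receptor kinases, had 3844 bp, RPL36, a ribosomal protein, 3134 bp, and TIMELESS 3001 bp. These 6 genes all had H3K4me3 promoter peaks in both lists, at CNNM4 and LMAN2L of 4051 and 4119 bp. In the normoxia list only they were PBDC1 (1658 bp), KHDRBS1, an RNA-binding protein (1459 bp), ENSGALG00000051429 (1449 bp), ADPRHL (1438 bp), PIP4K2B, a phosphoinositide kinase (1437 bp), and GABPB2, a subunit of the factor GABP (1329 bp). Outside the promoter window PBDC1 had 3 hypoxia H3K27ac peaks covering 3.44 kb.

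For H3K4me3 the widest promoters in the hypoxia list only were ASH1L, a histone methyltransferase (2575 bp), CDK18, a cyclin-dependent kinase (2357 bp), TNS4, of the tensin family (1419 bp), LOC112530393 (1393 bp), ENSGALG00000049096 (1362 bp) and TMEM106C (1295 bp). CDK18 had H3K27ac in both lists, 1837 and 4870 bp. Outside the promoter window it also had 5 normoxia H3K4me3 peaks covering 6.25 kb. In the normoxia list only they were LOC396365 (1531 bp), HCRT, the orexin precursor (1410 bp), CDC6, which licenses replication origins (1323 bp), LOC771995 (1151 bp), CD3E, of the T cell receptor complex (1016 bp), and NPFF, a neuropeptide precursor (910 bp). HCRT and CDC6 had no other annotated peak in any list.

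The widest H3K27ac peak in both lists was the same place. On chromosome 25 a peak of 8787 bp in normoxia (600966 to 609752) and of 8847 bp in hypoxia (601098 to 609944) lay at the start of ENSGALG00000054761, a gene without a symbol. Neither H3K4me3 list had a peak overlapping it. The next normoxia peaks were at WASF2, an actin regulator (7524 bp), within ANKS1A (6601 bp), at RARA (6359 bp) and near TINAGL1, a matrix protein (6236 bp). At each of these hypoxia had 2 or 3 peaks in place of 1, which summed to 8825 bp at WASF2 and to 2684 bp at RARA. The next hypoxia peaks were within EPB41, a protein 4.1 gene (8418 bp, against 3 normoxia peaks of 4467 bp in all), within NECTIN1, an adhesion molecule (6974 bp, against 4329 bp), and at RERE and DIXDC1.

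The widest H3K4me3 domain of the small chromosomes was in normoxia and lay over several hypoxia peaks. On chromosome 28 a peak of 33124 bp (3071705 to 3104828) spanned SBNO2 and STK11, and hypoxia had 3 peaks of 31687 bp in all over it, the largest 17142 bp at SBNO2 and 11968 bp at STK11. The 20686 bp normoxia peak over GATAD2A, MAU2 and SUGP1, also on chromosome 28, had a single hypoxia partner of 19622 bp. The peak at DOCK5, a guanine exchange factor, measured 14999 and 17975 bp. ATP6V0A1, a proton pump subunit, and PTRF, a caveolar protein, shared 16221 bp in normoxia and 3 hypoxia peaks of 18401 bp in all. In hypoxia the widest also included TUBA1A, TUBA1B and TUBA1C, the alpha tubulins of chromosome 33 (18953 bp, against 2 normoxia peaks of 15330 bp), FAM174C and RBM3 (18692 bp, against 3 of 14670 bp) and ELL, an elongation factor (18232 bp, against 2 of 15996 bp). The tubulin genes are close copies of each other, so reads there could be divided among them.

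Some genes gathered many peaks. CASZ1, a zinc finger factor on chromosome 21, had the most of any gene on the small chromosomes, 82 over the 4 lists, with 24 normoxia and 34 hypoxia H3K27ac peaks covering 23.3 and 36.9 kb. NECTIN1 led chromosome 24 with 58 peaks, 18 and 19 of them H3K27ac and covering 24.7 and 31.6 kb, and GRIK3, a kainate receptor, led chromosome 23 with 55, 7 and 22 of them H3K27ac. PTPRS, a receptor phosphatase, led chromosome 28 with 46, DIP2B chromosome 33 with 39, MAGI3, a scaffold protein, chromosome 26 with 36 and TANC2, also a scaffold, chromosome 27 with 32. ENSGALG00000049292 led chromosome 30 with 30, OTUD7B, a deubiquitinase, chromosome 25 with 20, BNIP3L chromosome 22 with 18, ACTN4, an actinin, chromosome 32 with 13 and ACHE, acetylcholinesterase, chromosome 31 with 11. Of these 12, 3 had fewer H3K27ac peaks in hypoxia than in normoxia: ACHE (4 and 3), ACTN4 (5 and 3) and ENSGALG00000049292 (8 and 6), on chromosomes 31, 32 and 30. Their covered length was nevertheless larger in hypoxia, 3.56 and 6.44 kb at ACHE and 3.05 and 5.65 kb at ACTN4.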

How the data were processed

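The measurements are CUT&RUN peaks of chick lens fiber cells. Per the file headers, the deposited table gives each peak's chromosome, start, end, list, annotation class, transcript, distance to the TSS and gene, with no value per library. The tools in the submitters' processing notes are ChIPseeker, MACS2, DESeq2 and STAR, with build galGal6, each without a role. Versions, thresholds, whether replicates were pooled, and read depth are not given in the sources used here. IgG was not used here. Of 124414 lines, 13452 lay on chromosomes 21 to 33. Intervals repeated for several transcripts were counted once. Starts, which follow the BED convention, are printed 1-based.

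Peaks were counted with Python 3.11.15 and pandas 2.3.3. Overlap counts were checked against bedtools 2.31.1, and the counting was tested on simulated peaks. Shares carry Wilson 95% intervals. Ratios of counts carry 95% intervals made from the Wilson interval of the hypoxia share of both counts. Both cover counting error only. No test between oxygen levels was possible. Gene members were counted by gene ID with the names of the table. Genes named are up to 6 per list by widest H3K27ac promoter peak, the 6 widest promoters in 1 list only, the 5 widest peaks per list, and the gene with most peaks per chromosome, with their neighbours at the 2 lens loci and members that make up a count of 5 or fewer. A few results chosen in this way were left out of the text. The members and lists were chosen with earlier results of these data known. Alternatives changed the unit counted, the minimum width, the overlap rule, the promoter window, list length and the chromosomes. No sequence of build galGal6 was used here, so base composition was not analysed and no sequence is shown.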

Additional observations from a re-analysis of the deposited data

How the results depend on the processing

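Over 26 results and 94 alternatives, 90 values lay on the same side of chromosomes 1 to 5 as reported. The 4 exceptions were small differences: normoxia H3K27ac peaks overlapping a hypoxia peak (43.4% against 45.4% with the longer list reduced, and 60.2% against 60.5% without chromosomes 29 to 33), H3K27ac promoters in both lists (47.8% against 48.8% with the list reduced), and H3K4me3 promoters in normoxia only (3.13% against 2.99% with a 1000 bp window). Below, values for several lists stand in the order normoxia H3K27ac, hypoxia H3K27ac, normoxia H3K4me3, hypoxia H3K4me3 unless named. Counting every line gave promoter shares of 54.1, 50.0, 74.2 and 72.2% and median widths of 593.5, 644.5, 1569 and 1531 bp. Peaks of at least 500 bp gave hypoxia over normoxia ratios of 2.12 for H3K27ac and 1.07 for H3K4me3, shared shares of 65.8% (normoxia H3K27ac), 84.9% and 77.4% (H3K4me3), promoter shares of 54.2, 50.3, 71.4 and 70.6%, H3K27ac densities of 17.1 and 36.3 per Mb, H3K4me3 at 61.8 and 54.2% of H3K27ac peaks, and 437 genes with H3K27ac in both lists. Covered length gave an H3K27ac ratio of 2.27. An overlap of 50% of both peaks gave shared shares of 18.2, 9.14, 56.1 and 48.7% and H3K4me3 at 11.2 and 11.6% of H3K27ac peaks. Reducing the longer list to the length of the shorter turned the H3K27ac ratio round (0.757) and gave 1.05 for H3K4me3. By construction this lowers the hypoxia count and makes the genome-wide counts of a mark equal, keeping only hypoxia H3K27ac peaks of 782 bp or more. It gave shared shares of 43.4 and 51.3% for H3K27ac and 71.7% for hypoxia H3K4me3, with 217 H3K27ac promoters in hypoxia only and 330 in normoxia only. A 1000 bp window gave promoter shares of 33.5, 28.1, 53.8 and 48.4%. Leaving out chromosomes 29 to 33 gave for hypoxia H3K27ac 27.4% shared, 43.8% promoter peaks and 47.4% with H3K4me3. Using peaks at any distance gave 87 genes with H3K4me3 in normoxia only. The other 50 values moved by at most 1.43 times, among them H3K4me3 densities of 53.5 and 61.2 per Mb with every line counted and 501 (list reduced) and 535 (1000 bp window) genes with H3K27ac in both lists. The 2 ratios with reduced lists, and chromosomes 6 to 20 as a second comparison, were chosen after seeing the data. The planned density alternative is identical to the reported density, since no chromosome length was used. No paired analysis was possible because each mark has 1 list per oxygen level, and for the same reason no replicate could be left out. The unknown depth of the lists limits every ratio between them.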
